A study of Mus musculus with 10 samples.

Results

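At 523 of 1728 mouse lincRNA loci (30.3%) that a microarray covered with a probe on each strand, RNA was detected on 1 strand and hardly or not at all on the other. Loci were chosen by the marks of the scanner software alone. A locus was taken when the probe of 1 strand was marked as well above background on 9 or 10 of the 10 arrays and the probe of the other strand on 3 or fewer. The detected strand was the minus strand at 318 of these one-strand loci (60.8%) and the plus strand at 205. The arrays, 1 per sample, came from wild type, chow-fed mice and from wild type brown adipocytes. White fat was taken from mice injected into the peritoneum once a day for 7 days with 1 mg/kg of the compound that the sample titles call CL (2 arrays), which stimulates the β3-adrenergic receptor. Brown fat (2 arrays) and white fat (2 arrays) were taken from mice given saline in the same way. Brown adipocytes were collected at days 0, 3, 5 and 7 of differentiation in culture (1 array per day). The strain, age and sex of the mice, the white fat depot and the origin of the cells are not given in the labels, where the tissue arrays are biological replicates and the number of mice behind each is not stated. P-values therefore measure the spread between these samples.

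Long intergenic non-coding RNAs (lincRNAs) are transcripts without a long reading frame that lie between protein-coding genes and are often spliced and polyadenylated like messenger RNAs. Many are found in few tissues, and several are known to act in the differentiation of brown and white adipocytes. A transcript copies 1 strand of the DNA, so a probe on each strand can tell a lincRNA from a transcript that runs the other way. Brown fat burns lipid to make heat and white fat stores it, and β3-adrenergic agonists switch on lipolysis in both and bring brown-like adipocytes into white fat.

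The one-strand loci are known here only by the names of their probes, which hold the mouse build mm9, the words for a lincRNA exon, a number (10002 to 12127 among these loci) and a strand sign. Whether the sign gives the strand of the transcript or of the probe is not stated in the files, and neither is what the numbers count. None of the 523 probes of a detected strand could be given a gene symbol (0 of 523), so each locus is named by its probe without the closing probe count, and its position and sequence are not used here. Each of these probes has 1 spot per array. Levels are processed signals on the log2 scale from which the 75th percentile of the same array was subtracted, so that 0 is the brightness at that percentile, and they are compared between arrays and never between probes. Of 30 marker genes for brown, white and other cell types, 0 had a probe under their name, so the labelled tissues could not be set against them. The 6 tissue arrays were scanned together and the cells in another scan. The CL arrays filled another column of the slide than the saline arrays, and brown and white fat filled different rows, so treatment cannot be told apart from column, nor tissue from row.

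The marks that chose the loci are given as a description. The detected strand was marked on all 10 arrays at 453 of the one-strand loci and on 9 arrays at 70. The other strand was marked on 0 arrays at 269 loci, on 1 at 121, on 2 at 69 and on 3 at 64. Of the loci, 238 had the fullest contrast, with 10 arrays on 1 strand and 0 on the other. Among all 1728 loci, 412 were marked on 9 or 10 arrays on both strands, 176 on 3 or fewer on both, and 617 lay in between. Over all loci the minus probe was marked on 9 or 10 arrays at 893 and the plus probe at 798.

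Of the 70 missing marks on a detected strand, 45 were on brown fat replicate 1, 17 on CL white fat replicate 1 and 4 on CL white fat replicate 2. Brown fat replicate 1 was also the array with the fewest marks over all probes (55.2%, against 62.4% to 78.3% on the other 9 arrays). The other strand was marked at 10 and 9 of the 523 loci on the CL white fat arrays, at 13 and 34 on the brown fat arrays and at 38 and 69 on the saline white fat arrays. In culture it was marked at 83, 137, 25 and 33 loci on days 0, 3, 5 and 7, so days 0 and 3 held 220 of the 451 marks. A mark is a lenient sign of RNA, since negative control spots carried it too. On CL white fat 1.91% and 1.72% of other-strand probes and 10.9% and 19.6% of negative control spots were marked. The shares were 2.49% and 6.5% of other-strand probes against 13.8% and 23.8% of negative control spots on brown fat, and 7.27% and 13.2% against 26% and 29.1% on saline white fat. On days 0, 3, 5 and 7 the other-strand probes were marked at 15.9%, 26.2%, 4.78% and 6.31%, and the negative control spots at 32.3%, 36.4%, 24.2% and 29.8%. On each of the 10 arrays the other strand was thus marked less often than the negative controls, which the choice of loci favours. The table of processed values that the authors deposited lists 513 of the 523 detected-strand probes and 0 of the other-strand probes.

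**Figure D1:**
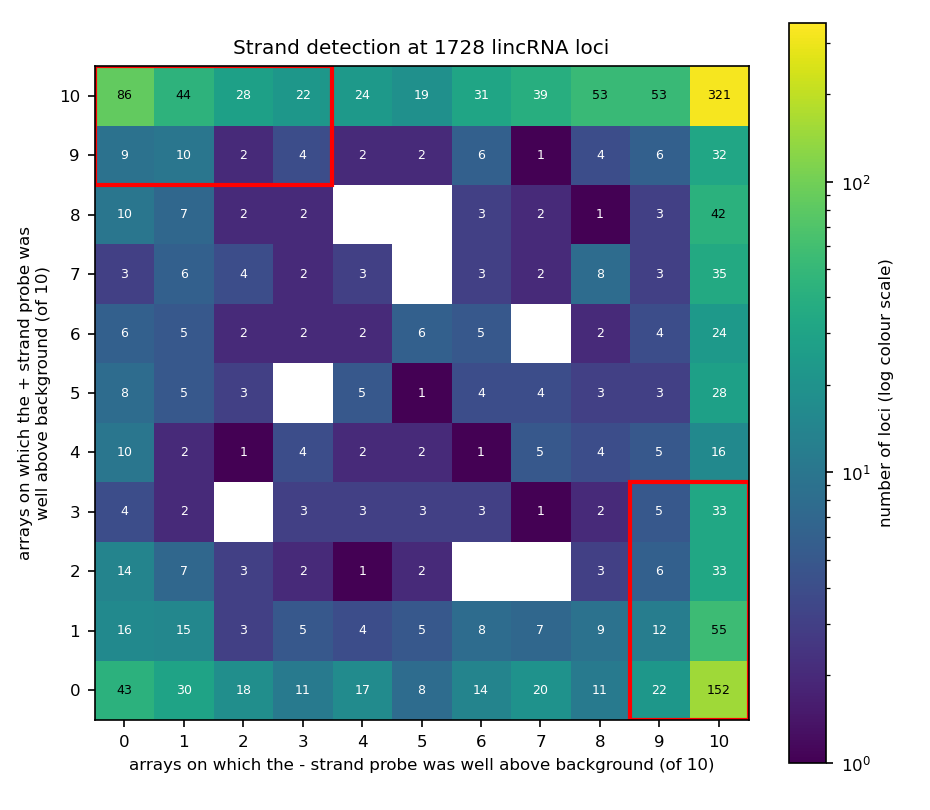
Number of lincRNA loci by the number of arrays on which the minus strand probe (x axis, 0 to 10) and the plus strand probe (y axis, 0 to 10) were well above background, with the colour on a log scale. The red frames hold the 523 one-strand loci, 205 at the upper left on the plus strand and 318 at the lower right on the minus strand.

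At the border of the rule, 9 loci had marks on exactly 9 and 3 arrays. The first 3 by locus number were MM9LINCRNAEXON10237- (levels of -3.55 to -2.38 over the 10 arrays), MM9LINCRNAEXON10442- (-3.96 to -2.44) and MM9LINCRNAEXON10845+ (-3.27 to -2.06). Just outside it, 4 loci had marks on 8 and 3 arrays, among them MM9LINCRNAEXON11366+ (-3.998 to -1.31), MM9LINCRNAEXON11498- (-3.97 to -2.66) and MM9LINCRNAEXON11739- (-4.25 to -2.31). Another 7 had marks on 9 and 4 arrays, among them MM9LINCRNAEXON10409- (-3.77 to -1.67), MM9LINCRNAEXON10493+ (-3.19 to -2.10) and MM9LINCRNAEXON10880- (-3.24 to -0.81). The ranges inside and outside the border overlapped.

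The level of a one-strand locus spanned a median of 1.61 log2 units from its lowest to its highest array, 69 loci spanned less than 1 and 56 more than 3. The steadiest was MM9LINCRNAEXON10326-, at 3.37 and 3.20 in CL white fat, 3.41 and 3.73 in brown fat, 3.64 and 3.53 in saline white fat, and 3.31, 3.30, 3.52 and 3.61 on days 0, 3, 5 and 7. Its highest and lowest arrays were 0.52 apart. MM9LINCRNAEXON11746+ (1.66 to 2.27), MM9LINCRNAEXON10244+ (4.97 to 5.62), MM9LINCRNAEXON11959+ (-1.81 to -1.15) and MM9LINCRNAEXON11074- (-2.10 to -1.44) came next, with spans of 0.61 to 0.65. The widest span, 8.48, was that of MM9LINCRNAEXON11355-, described with the culture. The mean level was highest in CL white fat at 77 loci, in brown fat at 303 and in saline white fat at 143. Among the culture days, the level was highest on day 0 at 239, day 3 at 44, day 5 at 120 and day 7 at 120. The same counts were not made over all probes. Median log2 differences from day 0 on days 3, 5 and 7 were -0.24, -0.25 and -0.13 over the loci. Over all probes marked in culture they were -0.16, -0.27 and -0.13. The arrays of a tissue group differed unequally, with a median SD over loci of 0.48 in CL white fat, 0.21 in brown fat and 0.21 in saline white fat (n = 2 each).

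Brown fat was set against white fat of saline-injected mice to ask which loci separate the tissues. Of the 523 one-strand loci, 41 were higher and 8 lower in brown fat at a limma adjusted p under 0.05, adjusted over all 43542 probes tested, among which all 523 detected-strand probes passed the filter. That is 9.37% of the loci, beside 10.4% of all probes tested, so the share called lies near the background. The directions were uneven: 7.84% of the loci were called higher in brown fat and 1.53% lower, beside 5.53% and 4.86% of all probes. Among the calls, 83.7% of those at one-strand loci and 53.2% of those over all probes were higher in brown fat. Over the 16 alternative settings these shares ran from 74.3% to 100% for the loci and from 36.0% to 73.0% for all probes, with the share of the loci larger in each. They were nearer in the deposited value table, at 84.4% and 73.0%. The share of 100% came only from fits with 1 array left out, in which few loci were called. The settings share arrays and loci, so they are not independent of each other. Each also kept the demand of the rule for marks on at least 9 arrays. A locus too dim to be marked on both brown fat arrays could not be chosen, and likewise for the white fat groups. Of the loci, 45 were not marked on brown fat replicate 1. Whether the rule shaped the directions was not tested. Among the 33323 probes marked on 9 or 10 arrays, as the detected strands are, 10% were called (6.33% higher and 3.69% lower), 63.2% of them higher in brown fat.

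The median log2 difference between brown and saline white fat was 0.21 over the one-strand loci and -0.12 over all probes. Above 0 lay 333 loci (63.7%), beside 44.8% of all probes. Among probes marked on 9 or 10 arrays the median was 0.02, and 51.1% lay above 0. The median over loci exceeded that over all probes in all 16 alternative settings, at 0.10 to 0.35 over loci and -0.24 to 0.10 over all probes. The demand of the rule for marks on nearly all arrays was kept in each. With normexp background correction the all-probe median was 0.10 and that of the loci 0.24. Loci marked on both strands gave much the same values: 78 of their 824 probes (9.47%) were called, 67 higher and 11 lower. Their median was 0.30, and 63.8% of these probes lay above 0. By strand, 19 of the 205 loci detected on the plus strand were called higher and 1 lower, and 22 of the 318 on the minus strand were called higher and 7 lower. In whole tissue, fewer cells of a type and less RNA per cell cannot be told apart.

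The count of calls rested on each array of the 2 groups. It fell when an array of brown fat or saline white fat was left out and rose when a CL white fat array was left out. The share called over all probes moved in the same way. The median log2 difference over the loci was 0.17 without brown fat replicate 1 and 0.29 without replicate 2. It was 0.10 without saline white fat replicate 1 and 0.35 without replicate 2. In these fits the lone array of a group is taken to vary like the others. The 3 loci MM9LINCRNAEXON10825+, MM9LINCRNAEXON10569- and MM9LINCRNAEXON10560- were called whichever of the 6 arrays was left out, and the other 46 of the 49 lost their call in at least 1 such fit.

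**Figure D2:**
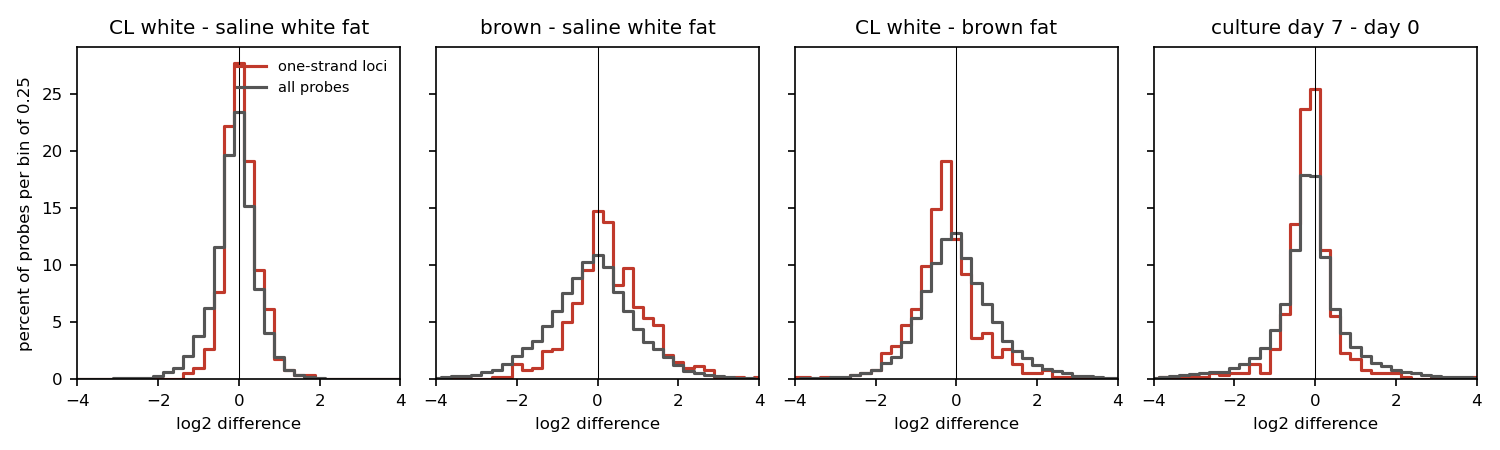
Percent of probes (y axis) by log2 difference (x axis, bins of 0.25) for the one-strand loci in red and all probes in grey, in CL against saline white fat, brown against saline white fat, CL white fat against brown fat, and culture day 7 against day 0. The brown fat panel has the red line to the right of the grey one, with medians of 0.21 and -0.12, and differences past 4 on either side lie outside the axes.

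MM9LINCRNAEXON10825+ had the largest difference between the tissues. Its level was 6.04 and 5.07 on the brown fat arrays, against 0.28 and 0.17 on the saline white fat arrays, so that the groups lay far apart. The difference was 40.2-fold, or log2 5.33 with an SE of 0.48 (limma adjusted p = 0.00356). On the CL white fat arrays it stood at 1.35 and 2.29, between brown fat and saline white fat without overlap. In culture it stayed near the level of saline white fat, at -0.12, 0.38, 0.13 and 0.02 on days 0, 3, 5 and 7.

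MM9LINCRNAEXON10569- reached 3.45 and 3.05 in brown fat, against -0.97 and -0.69 in saline white fat. The difference was 16.9-fold, or log2 4.08 with an SE of 0.44 (limma adjusted p = 0.00518). On the CL white fat arrays (-1.25 and -0.27) it overlapped saline white fat. MM9LINCRNAEXON10560- reached 7.04 and 6.71 in brown fat, against 3.15 and 3.44 in saline white fat, an 11.9-fold difference of log2 3.57 with an SE of 0.39 (limma adjusted p = 0.0056). Its CL white fat arrays (3.18 and 3.85) also overlapped saline white fat. The cells in culture stayed below brown fat for both loci, at -1.03 to -0.12 for MM9LINCRNAEXON10569- and 2.53 to 3.75 for MM9LINCRNAEXON10560-.

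Another 7 loci completed the 10 with the largest positive differences. MM9LINCRNAEXON11501- stood at 4.92 and 3.72 in brown fat, against 1.43 and 1.12 in saline white fat, a log2 difference of 3.05 (limma adjusted p = 0.0182). MM9LINCRNAEXON10293+ stood at 1.81 and 1.48 in brown fat, against -1.64 and -0.81 in saline white fat, a difference of 2.87 (adjusted p = 0.0185). MM9LINCRNAEXON11481- stood at 0.91 and 0.17 in brown fat, against -2.40 and -1.98 in saline white fat. It differed by 2.73 (adjusted p = 0.0286) and was lower still in culture, at -3.33 to -2.93. The remaining 4 were MM9LINCRNAEXON11637+, MM9LINCRNAEXON11168+, MM9LINCRNAEXON11650+ and MM9LINCRNAEXON10776-, with log2 differences of 2.67, 2.65, 2.58 and 2.58 and limma adjusted p of 0.0124, 0.0252, 0.018 and 0.0226. Of these 10 loci, MM9LINCRNAEXON11168+ alone missed a mark on a tissue array, on CL white fat replicate 1, and its difference was 1.49 with normexp correction (adjusted p = 0.02). The 31 called loci not named here were higher in brown fat by log2 1.38 to 2.48.

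All 8 loci called lower in brown fat are named, and their log2 differences ran from -2.42 to -1.65. MM9LINCRNAEXON10643- stood at -3.54 and -2.11 in brown fat, against -0.27 and -0.54 in saline white fat (log2 -2.42, SE 0.57, limma adjusted p = 0.0418). MM9LINCRNAEXON10219- stood at -1.82 and -1.75 in brown fat, against 0.17 and 0.80 in saline white fat (log2 -2.27, SE 0.38, adjusted p = 0.0189), and its CL white fat arrays, at 0.10 and 0.29, stayed above brown fat. For both loci every brown fat array was below every white fat array. MM9LINCRNAEXON11111-, MM9LINCRNAEXON11045-, MM9LINCRNAEXON10665-, MM9LINCRNAEXON10292-, MM9LINCRNAEXON10002- and MM9LINCRNAEXON10420+ were lower by log2 -2.07, -2.04, -1.95, -1.74, -1.71 and -1.65, with limma adjusted p of 0.0266, 0.0486, 0.0252, 0.0493, 0.0343 and 0.045. Of the 8, MM9LINCRNAEXON10643-, MM9LINCRNAEXON11111- and MM9LINCRNAEXON10292- were not marked on brown fat replicate 1. With normexp correction their differences were smaller, at -1.20, -0.62 and -0.91, and the last 2 missed the threshold (adjusted p = 0.274 and 0.121). MM9LINCRNAEXON11045- and MM9LINCRNAEXON10665- differed by -1.35 and -1.24 with that correction and stayed called.

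**Figure D3:**
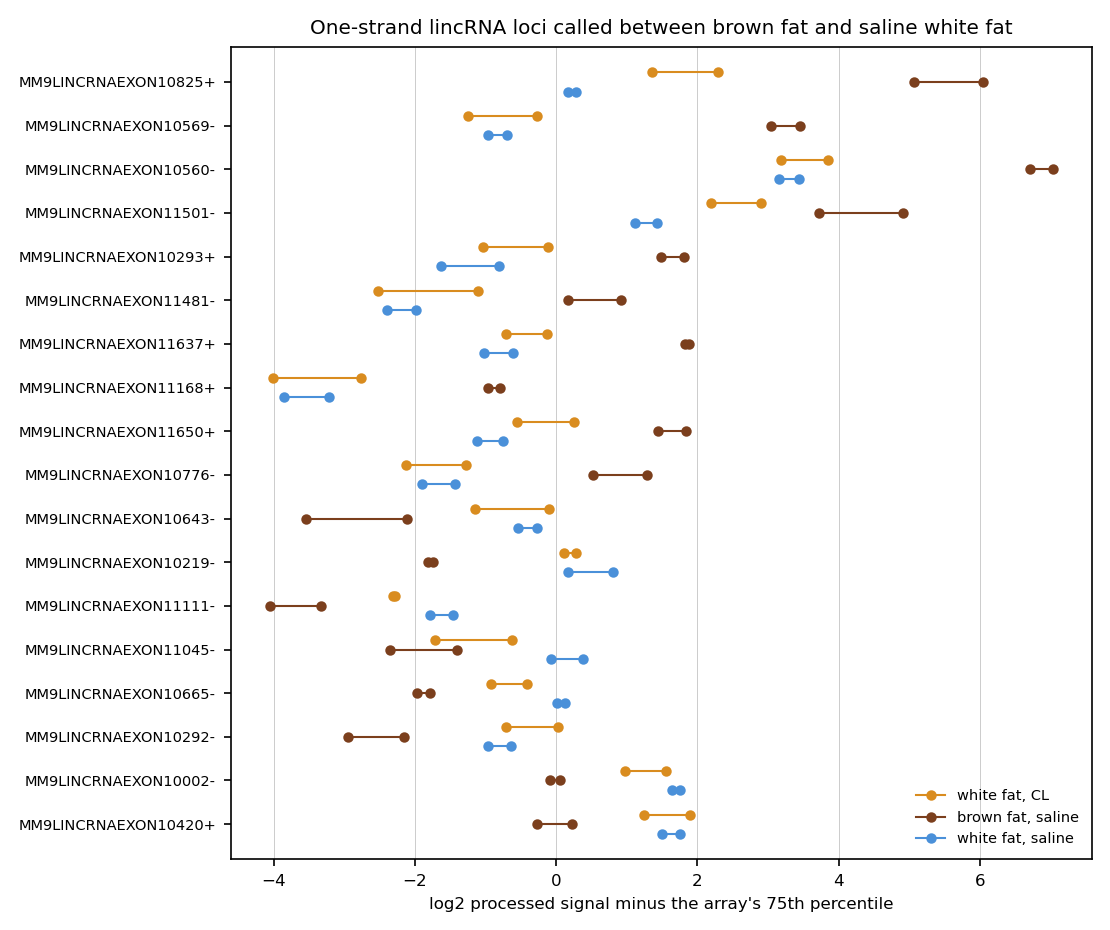
Level (x axis, log2 signal relative to the array's 75th percentile) of the 18 named one-strand loci called between brown fat and saline white fat, with 1 point per array and a line joining the 2 arrays of a group (CL white fat orange, brown fat dark brown, saline white fat blue). In the upper 10 loci both brown fat points lie to the right of both saline white fat points, and in the lower 8 both lie to the left.

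Loci with adjoining numbers and opposite detected strands could differ in opposite directions. MM9LINCRNAEXON10292- was lower in brown fat, at -2.94 and -2.15 against -0.96 and -0.64 in saline white fat, while MM9LINCRNAEXON10293+ was higher there. In culture MM9LINCRNAEXON10292- was above all tissue arrays, at 2.08, 1.86, 1.78 and 1.56 on days 0, 3, 5 and 7. This pair was picked out after its values were seen.

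The other strand of the leading locus was detected in brown fat as well. The probe MM9LINCRNAEXON10825- was marked on both brown fat arrays (levels of -1.43 and -1.89) and on no other array, with -6.43 and -5.86 on the saline white fat arrays. Brown fat exceeded saline white fat at least 5.89-fold there, where the bound replaces a dim array's value by the lowest signal of a marked probe. The bound was not tested. The limma adjusted p of 0.00976 belongs to the difference of log2 4.48, which uses the unmarked values. MM9LINCRNAEXON10825- is 1 of 25 other-strand probes that were marked on both arrays of a tissue group and hence tested. Of these, 6 were called. A probe limited to 3 marks that enters through 1 group had to differ, so these calls are a description. The label of detection on 1 strand held for MM9LINCRNAEXON10825 in white fat and in culture, and in brown fat both strands were marked.

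CL treatment was set against saline in white fat to ask what a week of β3-adrenergic stimulation changes. None of the 523 one-strand loci was called (0), beside 0% of all 43542 probes tested. At an unadjusted limma p under 0.05 there were 13 loci (2.49%), 10 higher and 3 lower after CL, beside 2378 probes (5.46%) in all. The median log2 difference was 0.01 over the loci and -0.08 over all probes. The 2 CL arrays lay on opposite sides of saline white fat in this respect, since the medians were 0.29 and 0.14 without CL replicate 1, and -0.27 and -0.27 without CL replicate 2. The spread between the 2 CL arrays, with a median SD of 0.48 over the loci, was above that of the other groups.

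The smallest p belonged to MM9LINCRNAEXON11065-, which stood at 2.44 and 2.92 in CL white fat, against -1.23 and -1.67 in saline white fat. Both CL arrays were above all the other tissue arrays, since brown fat was at -1.88 and -2.59. The difference was log2 4.13 (SE 0.42), or 17.5-fold higher after CL, with a limma adjusted p of 0.28. Over the alternative settings its adjusted p ran from 0.00192 to 1.00. It passed with normexp correction (0.00192), where 32 of all probes were called, and among probes marked on all 6 tissue arrays (0.0322), where 2 were. In both settings it was the 1 one-strand locus among the probes called.

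MM9LINCRNAEXON11066- and MM9LINCRNAEXON11067-, the loci with the next 2 numbers, were detected on the same strand and were also among the 6 with the smallest p. MM9LINCRNAEXON11066- stood at -0.22 and -0.97 in CL white fat, against -2.29 and -2.34 in saline white fat (log2 1.72, limma adjusted p = 0.591). MM9LINCRNAEXON11067- stood at -0.47 and -0.29 in CL white fat, against -1.59 and -1.23 in saline white fat (log2 1.03, adjusted p = 0.812). The groups did not overlap at any of the 3 loci, which the choice by smallest p favours, and none passed the test. The share of all probes whose groups do not overlap is not given here. The plus strand probes of 11066 and 11067 were marked on 0 arrays, and that of 11065 on days 0, 3 and 7. The run of 3 was picked out after its values were seen.

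The other 3 of these 6 loci were MM9LINCRNAEXON10825+ (log2 1.60, adjusted p = 0.737), MM9LINCRNAEXON10036- (1.09, adjusted p = 0.846) and MM9LINCRNAEXON11971- (-1.19, adjusted p = 0.863). MM9LINCRNAEXON10036- stood at -2.35 and -1.89 in CL white fat, against -3.51 and -2.91 in saline white fat. MM9LINCRNAEXON11971- stood at -1.78 and -0.96 in CL white fat, against -0.57 and 0.21 in saline white fat. Neither pair of groups overlapped, which the choice by smallest p favours here too, and neither difference passed the test.

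**Figure D4:**
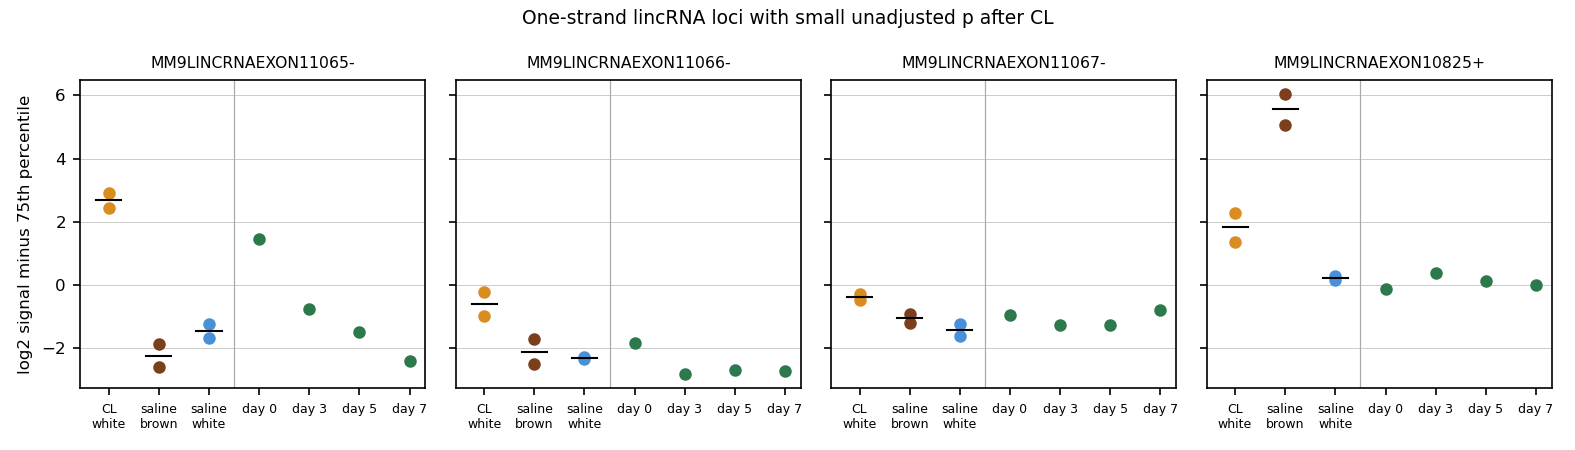
Level (y axis, log2 signal relative to the array's 75th percentile) on each array for MM9LINCRNAEXON11065-, MM9LINCRNAEXON11066-, MM9LINCRNAEXON11067- and MM9LINCRNAEXON10825+ in CL white fat, saline brown fat, saline white fat and on culture days 0, 3, 5 and 7, with bars at the means of the 2 tissue arrays. The 2 CL points of each locus lie above its 2 saline white fat points, and no adjusted p is under 0.05.

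A further comparison set CL white fat against saline brown fat. It differs in tissue as well as in treatment, and the arrays are shared with the comparisons above. In all, 10 loci were called (1.91%), 4 higher and 6 lower in CL white fat, beside 3.49% of all probes tested (1.98% higher and 1.51% lower) and 2.99% of probes marked on 9 or 10 arrays (1.62% higher and 1.37% lower). The difference between these shares was not tested, and in the deposited value table it ran the other way, with 7.41% of the loci called and 6.73% of all probes. Of the 824 probes of loci marked on both strands, 2.79% were called (0.485% higher and 2.31% lower), with a median log2 difference of -0.33. The median log2 difference was -0.29 over the one-strand loci and -0.03 over all probes. Without CL white fat replicate 1 these medians were -0.02 and 0.17, and without replicate 2 they were -0.59 and -0.30. MM9LINCRNAEXON11065- was 30.2-fold higher in CL white fat (log2 4.91, SE 0.42, limma adjusted p = 0.00367), at 2.44 and 2.92 against -1.88 and -2.59 in brown fat. MM9LINCRNAEXON10487- stood at 1.77 and 0.60 in CL white fat, against -0.93 and -1.23 in brown fat (log2 2.27, adjusted p = 0.0458). MM9LINCRNAEXON10292- and MM9LINCRNAEXON10219- were higher by 2.21 and 1.98 (adjusted p = 0.0449 and 0.0388). With normexp correction both missed the threshold, at 1.26 and 1.28 (adjusted p = 0.0558 and 0.0527), and MM9LINCRNAEXON10292- was not marked on brown fat replicate 1.

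The loci lower in CL white fat than in brown fat were MM9LINCRNAEXON10569- (log2 -4.01), MM9LINCRNAEXON10825+ (-3.73), MM9LINCRNAEXON10560- (-3.35), MM9LINCRNAEXON10776- (-2.61), MM9LINCRNAEXON11168+ (-2.51) and MM9LINCRNAEXON11637+ (-2.27). Their limma adjusted p ran from 0.0075 to 0.0427, and with normexp correction MM9LINCRNAEXON11168+ differed by -1.38 (adjusted p = 0.0472). The number and direction of calls moved with the setting. There were 2 higher and 7 lower with quantile normalization (8 of the 10 still called), 4 and 12 with median scaling (9 of the 10), 5 and 18 with normexp correction (8 of the 10) and 11 and 27 in the deposited value table (all 10). Over all probes these settings gave 747 higher and 722 lower, 977 and 1015, 1050 and 1001, and 418 and 856. With only the 2 groups in the fit there were 12 loci higher and 13 lower, beside 1595 and 1276 of all probes. Without CL white fat replicate 1 the lean of the loci turned to higher in CL white fat. More of the calls over all probes lay on that side with and without this array. Without replicate 2 more loci were called lower, while the calls over all probes were nearly even. Fewer loci, and fewer of all probes, were called when a brown fat or saline white fat array was left out. MM9LINCRNAEXON11065- and MM9LINCRNAEXON10569- were the 2 loci called whichever array was left out.

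The culture of brown adipocytes has 1 array per day, so its differences have no replicate check and no test. At least 2-fold above day 0 on each of days 3, 5 and 7 were 14 of the 523 loci, and 22 were at least 2-fold below it. That is 6.88% of the loci, beside 11.6% of the 48586 probes marked on at least 1 of the 4 culture arrays. By direction, 2.68% of the loci lay above and 4.21% below, beside 5.36% and 6.2% of all these probes. Among probes marked on 9 or 10 arrays, 6.17% lay above and 4.77% below (10.9% in all). Of the 824 probes of loci marked on both strands, 2.79% lay above and 3.52% below (6.31% in all), a share like that of the one-strand loci. At day 7 alone, 22 loci lay above and 30 below (9.94%, beside 21.7% of all probes, 9.58% above and 12.1% below). Among probes marked on 9 or 10 arrays it was 18.4%, with 10.1% above and 8.25% below. For probes of loci marked on both strands it was 12.9%, with 6.55% above and 6.31% below. The median log2 difference from day 0 was -0.13 over the loci and -0.13 over all probes. Median scaling turned the splits of the one-strand loci to 20 above and 15 below on all 3 days. At day 7 they became 29 and 25, with a median of 0.05. With normexp correction they were 8 and 17 on all 3 days and 13 and 23 at day 7.

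MM9LINCRNAEXON11355- showed the largest day 7 difference among the loci raised on all 3 days, with levels of 1.86, 5.71, 6.46 and 6.87 on days 0, 3, 5 and 7. Day 7 was 32.3-fold above day 0 (log2 5.01). In the tissues it lay at -0.51 and 1.35 in CL white fat, -0.91 and -1.61 in brown fat and 1.18 and 0.36 in saline white fat, below the level of every culture day. MM9LINCRNAEXON10586- stood at -2.86 on day 0 and at 1.49, 1.66 and 1.14 on days 3, 5 and 7, a log2 difference of 3.996 at day 7 (2.82 with normexp correction). MM9LINCRNAEXON10629- stood at -0.65, 1.53, 2.05 and 2.23 on days 0, 3, 5 and 7, a difference of 2.88 at day 7.

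Another 5 raised loci were named for the size of their smallest difference. MM9LINCRNAEXON10174- had log2 differences from day 0 of 3.00, 2.56 and 1.44 on days 3, 5 and 7, and MM9LINCRNAEXON11045- had 2.30, 2.71 and 1.49. MM9LINCRNAEXON11479- had 1.82, 2.08 and 1.32. These 3 were lower at day 7 than at days 3 and 5. MM9LINCRNAEXON10305- had 1.47, 1.52 and 1.76, and MM9LINCRNAEXON10282+ had 1.43, 1.98 and 1.73. The day 7 differences of MM9LINCRNAEXON11045- and MM9LINCRNAEXON10174- were 0.80 and 0.87 with normexp correction, under 2-fold. The 6 raised loci not named had day 7 differences of 1.02 to 2.17.

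Among the lowered loci, MM9LINCRNAEXON10002- stood at 3.84 on day 0 and at 0.07, 1.22 and 1.05 on days 3, 5 and 7. MM9LINCRNAEXON10585+ stood at 5.67 on day 0 and at 1.93, 3.15 and 3.06 afterwards. Both were lowest on day 3, and their day 7 log2 differences were -2.79 and -2.61. MM9LINCRNAEXON11065-, the locus with the smallest p after CL, stood at 1.45, -0.76, -1.48 and -2.41 on days 0, 3, 5 and 7. Its day 7 difference was -3.86 (-2.97 with normexp correction), and its level was lower on each later day. MM9LINCRNAEXON10021-, MM9LINCRNAEXON11642-, MM9LINCRNAEXON10665-, MM9LINCRNAEXON11492- and MM9LINCRNAEXON11305+ had day 7 differences of -3.14, -3.05, -2.58, -2.40 and -2.10. The 14 lowered loci not named had day 7 differences of -2.15 to -1.05. MM9LINCRNAEXON10585+ and MM9LINCRNAEXON10586- have consecutive numbers and opposite detected strands and moved in opposite directions in culture, a pair picked out after its values were seen. In brown against saline white fat both differed by log2 -0.43, with limma adjusted p of 0.601 and 0.458.

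**Figure D5:**
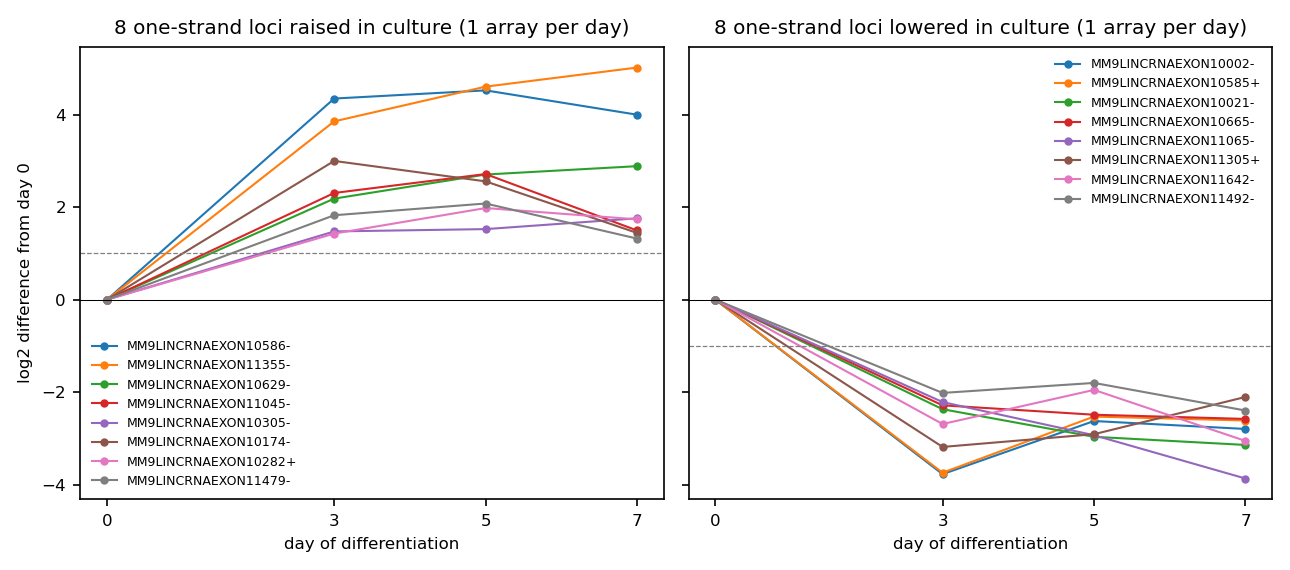
Log2 difference from day 0 (y axis) on days 0, 3, 5 and 7 (x axis) for the 8 named raised loci at the left and the 8 named lowered loci at the right, with 1 array per day and dashed lines at 2-fold. MM9LINCRNAEXON11355- ends highest at 5.01 and MM9LINCRNAEXON11065- ends lowest at -3.86.

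The tissue and culture comparisons share no array. Of the 41 loci higher in brown than in saline white fat, 0 were 2-fold above and 0 were 2-fold below day 0 at day 7, with differences of -0.64 to 0.82. Among all 2406 probes called higher in brown fat that have a value on the culture arrays, 14.4% lay 2-fold above and 4.36% below. Of the 8 loci lower in brown fat, MM9LINCRNAEXON11045- lay 2-fold above day 0 and MM9LINCRNAEXON10002-, MM9LINCRNAEXON10643- and MM9LINCRNAEXON10665- lay 2-fold below it at day 7. Among all 2118 probes called lower in brown fat, 14.7% lay above and 26.8% below. Of the 474 loci not called between the tissues, 4.43% lay above (21) and 5.7% below (27), beside 8.81% and 10.1% of 38987 probes not called. The difference between these shares was not tested. A locus unmarked on 2 or more culture days could not be a one-strand locus, while the probes beside them have no such limit. The rule therefore bears on these shares, and they are not given here for probes marked on 9 or 10 arrays.

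Consecutive numbers joined 150 pairs of one-strand loci, and 252 of the 523 loci were in a run of 2 or more numbers. Among all 1728 loci, of which 30.3% were one-strand loci, there were 1531 pairs with consecutive numbers. Whether one-strand loci adjoin each other more often than that share gives was not tested. In 84 of the 150 pairs (56.0%) both loci were detected on the same strand, beside the 52.3% that the shares of plus and minus loci give on their own. The median correlation of levels over the 10 arrays was 0.26 for consecutive loci on the same strand (84 pairs), 0.32 for those on opposite strands (66 pairs) and 0.18 over all 135460 pairs of loci. These are descriptions over shared arrays, and pairs of loci are not independent. There were 3 runs of 5 numbers, 10983 to 10987, 11290 to 11294 and 11538 to 11542, and each held both signs. None of their 15 loci was called between brown and saline white fat, beside 9.37% of the 523 loci, a share at which few of 15 would be called. The nearest to a call were MM9LINCRNAEXON10985+ (log2 1.87, limma adjusted p = 0.052) and MM9LINCRNAEXON11294- (1.78, adjusted p = 0.0578). In culture, MM9LINCRNAEXON11541- alone among the 15 differed by 2-fold at day 7, at log2 -2.13, beside 9.94% of the 523 loci.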

How the data were processed

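RNA from 6 mouse fat samples and 4 brown adipocyte cultures was measured on one-colour Arraystar Mouse LncRNA V2.0 arrays. Per the file headers, the deposited spot intensity values are background-subtracted processed signals from Agilent Feature Extraction 11.0.1.1, with flags for spots well above background, saturated spots (0) and outlier spots. Per the submitters' processing notes the version was 9.1. The authors also deposited a table of log2 values for 18997 probes, whose scale was settled by its fit to the log2 signal of each array (r of 0.999 to 1.00). How it was made is not given in the sources used here, so normalization and centring stay unknown. Its column medians were 7.15 and 7.41 (CL white fat), 7.45 and 7.42 (brown fat), 7.20 and 7.30 (saline white fat) and 7.38, 7.36, 7.37 and 7.45 (days 0, 3, 5 and 7).

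Control spots, 1200 spots of 20 negative control probes and spots with an outlier flag were left out (2 of 5230 spots of the detected strands), which left 59709 probes. The 75th percentile of each array was subtracted from its log2 signals. One model of group means was fitted with limma 3.58.1 (lmFit and eBayes, R 4.3.3) to the 6 tissue arrays, over the 43542 probes marked on both arrays of at least 1 group, with 3 residual and 4.46 prior degrees of freedom. A two-sided Benjamini-Hochberg adjusted p under 0.05 made a call, and the fit was tested on simulated data. The number of arrays limits the precision. Named loci were the 10 most positive and 10 most negative called differences between brown and saline white fat and the 5 and 5 between CL white and brown fat. They were also the 6 smallest p for CL against saline, the 8 raised and 8 lowered in culture by the smallest of the 3 differences, the 5 steadiest and the 3 longest runs. The loci and lists were chosen with earlier results of these data known. Alternatives were the normalization, background correction, probe filter, array weights, a replicate block, each array left out and the limits of the rule. The comparison with probes marked on 9 or 10 arrays was added after seeing the data.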

Additional observations from a re-analysis of the deposited data

How the results depend on the processing

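One-strand loci called between brown and saline white fat, 49 as reported, numbered 78 with quantile normalization, 80 with median scaling, 109 in the deposited value table, 14 with no probe filter, 80 among probes marked on all 6 tissue arrays, 169 with array weights, 152 with only the 2 groups in the fit, 26 of the 238 loci marked on 10 arrays against 0, and 3 to 147 with 1 array left out. For CL white fat against brown fat the 10 calls became 16 with median scaling, 23 with normexp correction, 38 in the deposited value table, 4 with no filter, 30 among probes marked on all 6 arrays, 3 with array weights, 25 with only the 2 groups, 3 under the 10 against 0 rule and 2 to 111 with 1 array left out. For CL against saline white fat the count was 1, MM9LINCRNAEXON11065-, with normexp correction and among probes marked on all 6 arrays. Over all probes 32 and 2 were called in these settings. In culture the 36 loci changed on all 3 days became 69 at 1.5-fold, 15 at 3-fold and 17 under the 10 against 0 rule, and the 52 at day 7 became 116, 26 and 23. The shares of all probes at 1.5-fold and 3-fold are not given here. The rule itself gave 238 loci at 10 against 0, 620 at 8 or more against 4 or fewer and 462 on the tissue arrays alone.

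With the replicate number as a block, 61 loci were called between brown and saline white fat (11.7%, beside 14.3% of all probes) and 0 between CL and saline white fat. Between CL white fat and brown fat 18 were called, 9 higher and 9 lower (3.44%, beside 5.03% of all probes). Deviations of same-numbered arrays correlated at -0.02 for brown and saline white fat, 0.50 for CL and saline white fat and -0.08 for CL white and brown fat, so same-numbered arrays deviated together for CL and saline white fat but not for the other 2 pairs of groups. The labels do not tie the numbers to a shared animal or batch, and the samples were treated as unpaired.

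The 33 differences of named loci between tissue groups had 489 alternative values. They include the named differences between CL and saline white fat, none of which was called as reported. Of the 489 values, 378 kept their direction and stayed called or stayed uncalled, so the 378 are not all calls that were kept. Another 108 kept the direction without the call, 3 gained a call and 0 turned direction. The cause of these shifts was not tested, beyond the change in probes, arrays or fold that a setting makes by its construction.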
